A study of Mus musculus with 947 samples.

Results

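The 5 microRNAs (miRNAs) described here are mmu-miR-99a-5p, mmu-miR-99b-5p and mmu-miR-100-5p of the miR-99/100 family, and mmu-miR-125a-5p and mmu-miR-125b-5p of the miR-125 family. They were chosen by name, as products of the 5′ arms of the mouse precursors of both families, and are 5 of the 1076 miRNAs measured in an aging cohort and 5 of the 795 measured in a parabiosis cohort. The aging cohort, called Tabula Muris Senis, was sequenced as small RNA from 16 tissues of C57BL/6JN mice at 10 ages (1 month, 3 months and then every 3 months up to 27), and 769 libraries were used (553 from males, 216 from females, with females to 21 months only). The parabiosis cohort holds 176 libraries of 6 tissues from 30 male mice, joined surgically in 15 pairs so that the partners shared a circulation. Isochronic young (IY) mice, aged 3 or 4.5 months, were joined to another young mouse, and isochronic aged (IA) mice of 19 months to another aged mouse. Heterochronic young (HY) mice of 4 months and heterochronic aged (HA) mice of 19 months were joined to each other. All HY mice came from a different C57BL/6 strain than the IY mice. IY, IA and HA mice were C57BL/6J or C57BL/6JN, and the sources of the study do not give the same account of which mice were of which strain. The effect of an aged partner and the effect of strain cannot be told apart in HY against IY, and strain also differs in HA against HY. By either account some mice of 19 months were of another strain than the IY mice. Strain thus also differs in part in IA against IY, and its mix may differ in HA against IA.

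A miRNA guides the silencing complex to messenger RNAs that pair with its seed, the bases 2 to 8 counted from its 5′ end, so miRNAs with the same seed share most of their predicted targets. The miR-125 family is the vertebrate counterpart of lin-4, a regulator of developmental timing in worms, and in most animals its genes lie in a cluster with genes of the let-7 and miR-99/100 families. Known targets of the miR-99/100 family include the growth regulator Mtor, and miR-125b is known for its part in blood stem cells and for driving leukaemia when it is overexpressed.

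The mature sequences show which members reads could be confused between and which share a seed. They were taken from RefSeq (GRCm38) and are printed 5′ to 3′ with the seed in capitals.
mmu-miR-99a-5p: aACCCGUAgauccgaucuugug
mmu-miR-100-5p: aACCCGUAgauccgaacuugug
mmu-miR-99b-5p: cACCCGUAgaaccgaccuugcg
mmu-miR-125b-5p: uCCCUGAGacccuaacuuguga
mmu-miR-125a-5p: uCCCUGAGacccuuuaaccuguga
mmu-miR-351-5p: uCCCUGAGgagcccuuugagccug
The first 3 share the seed ACCCGUA and the last 3 the seed CCCUGAG. Each seed is found in exactly 3 miRNAs among the 894 of 1076 that could be matched to a RefSeq sequence. mmu-miR-351-5p, the seed relative of the miR-125 family from another cluster, is shown for that reason only. mmu-miR-100-5p differs from mmu-miR-99a-5p at a single base, U16A, counted from 1 at the 5′ end of mmu-miR-99a-5p. mmu-miR-99b-5p differs from mmu-miR-99a-5p at 4 bases (A1C, U11A, U16C and U21C). mmu-miR-125a-5p is 24 bases long and shares its first 13 bases with mmu-miR-125b-5p, while the other members are 22 bases long. The authors allowed 1 mismatch in mapping, so reads of mmu-miR-99a-5p and mmu-miR-100-5p could have been assigned to each other, and no value printed here measures how often that happened.

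The members come from 3 clusters, each of which holds a miR-99/100 gene, a let-7 gene and a miR-125 gene in the same order. On chromosome 16, Mir99a, Mirlet7c-1 and Mir125b-2 span 47.4 kb in an intron of the long noncoding RNA gene Mir99ahg. mmu-miR-99a-5p lies there at chr16:77598940-77598961 on the plus strand, and a copy of mmu-miR-125b-5p at chr16:77646279-77646300. On chromosome 9, Mir100, Mirlet7a-2 and Mir125b-1 span 50.6 kb in introns of the noncoding genes 3110039I08Rik and Gm49317. mmu-miR-100-5p lies there at chr9:41531437-41531458, and the other copy of mmu-miR-125b-5p at chr9:41581940-41581961. On chromosome 17, Mir99b, Mirlet7e and Mir125a lie within 0.686 kb in Spaca6, Mir99b in an intron and Mir125a in an exon. mmu-miR-99b-5p is at chr17:17830194-17830215 and mmu-miR-125a-5p at chr17:17830817-17830840. Mature mmu-miR-125b-5p is thus the product of 2 genes and cannot be split between them, but the opposite arms of the 2 precursors differ. Their sequences are shown because they tell the 2 genes apart.
mmu-miR-125b-1-3p: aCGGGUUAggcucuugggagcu
mmu-miR-125b-2-3p: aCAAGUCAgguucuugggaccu

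Levels are given in reads per 1000000 mapped reads (rpmm), as deposited. They count reads and not molecules, and a comparison between members is a comparison of reads. The depth was a median of 20.1 M mapped reads a library (M for 1000000) in both cohorts, from 2.29 to 167 M in the aging cohort and from 9.20 to 47.6 M in the parabiosis cohort. Within each tissue, miRNAs that reached 1 rpmm in 10% or more of its libraries were compared, and the members passed that filter in all 80 pairs of a member and a tissue in the aging cohort (of 8849 pairs over all miRNAs) and in all 30 in the parabiosis cohort (of 3211). A single value was 0, that of mmu-miR-125a-5p in a spleen library of 3.34 M reads, where 0 reads allow a level of up to 0.899 rpmm (3 reads, counting error only). By their whole miRNA profile, 10 libraries of the aging cohort and 3 of the parabiosis cohort were closer to another tissue than to their own. These include a 21-month skin library with r = 0.992 to liver and 0.847 to skin, all 3 mesenteric fat libraries of 27 months, and 3 mesenteric fat libraries of the parabiosis cohort closest to gonadal fat. For the 10 of 16 tissues that had a marker list, the markers ranked between 1 and 4 of 16 in the labelled tissue, and the other tissues were not checked in this way. Fat was taken from 4 depots, namely brown fat (BAT) and the gonadal (GAT), mesenteric (MAT) and subcutaneous (SCAT) white depots. In brain, the 12 libraries with title numbers 25 to 36 were lower in every member, with a median of 211 rpmm of mmu-miR-99a-5p against 899 to 1255 in the other sets of 12 numbers. In kidney, the 9 libraries numbered 1 to 12 were also lower in every member, with a median of 221 rpmm of mmu-miR-99a-5p against 862 to 1235. In bone, the 11 libraries numbered 13 to 24 were higher in mmu-miR-125b-5p, with a median of 259 rpmm against 31.9 to 52.6.

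mmu-miR-99a-5p was the most abundant member in 762 of the 769 aging libraries and in all 176 parabiosis libraries. Its median was highest in heart, at 1796 rpmm (456 to 3188 over the libraries), followed by GAT at 1416, SCAT at 1265 (24.5 to 3208), lung at 1174, kidney at 950 and brain at 936 (117 to 1681). It was 875 in MAT, 811 in skin, 544 in limb muscle, 488 in BAT, 417 in liver, 411 in pancreas (10.1 to 1829) and 336 in bone. Both blood-forming tissues and the gut were lowest, with 112 in spleen, 95.5 in marrow and 78.7 in small intestine (36.7 to 218). The highest tissue median was 22.8-fold the lowest. Most neighbours in this order did not differ beyond the spread of their libraries (two-sided permutation test with 100000 shuffles, adjusted over the 75 neighbour pairs of all members). Skin exceeded limb muscle (adjusted p = 0.000545), bone exceeded spleen (0.000107) and marrow exceeded small intestine (0.0352), so 3 of 15 steps passed.

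mmu-miR-100-5p, which differs from mmu-miR-99a-5p by a single base, had another order of tissues and a level below it in every library of both cohorts. Its median was 116 rpmm in brain (14.3 to 215), 95.5 in GAT, 89.8 in MAT, 80.8 in limb muscle, 80.5 in SCAT, 65.7 in heart and 62.5 in lung. Lower medians were 44.7 in BAT, 37.5 in skin, 35.6 in bone, 22.7 in kidney, 21.9 in small intestine, 21.8 in liver, 14 in spleen, 9.23 in marrow and 4.75 in pancreas (1.59 to 14). Heart, first for mmu-miR-99a-5p, was 6th for mmu-miR-100-5p, and pancreas, 12th for mmu-miR-99a-5p, was last. In this order 4 of 15 steps passed, bone over kidney, liver over spleen, spleen over marrow (adjusted p = 0.0132) and marrow over pancreas.

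mmu-miR-99b-5p, from the compact chromosome 17 cluster, had medians of 238 rpmm in lung (39.7 to 725), 223 in GAT, 198 in kidney, 185 in brain, 163 in MAT, 157 in SCAT and 109 in heart. It was 71.5 in BAT (2.79 to 298), 65.4 in skin, 53.7 in small intestine, 46 in limb muscle, 45 in liver, 35.1 in spleen, 31.9 in bone, 17.6 in pancreas and 13.4 in marrow (6.00 to 56.4). Of its steps 6 of 15 passed, including SCAT over heart (adjusted p = 0.0245), small intestine over limb muscle (0.0125) and pancreas over marrow (0.0352). The other 3 were heart over BAT, liver over spleen and bone over pancreas.

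Both miR-125 members were highest in brain and lowest in marrow. mmu-miR-125b-5p had a median of 163 rpmm in brain (25.3 to 286), 95.8 in GAT, 87.8 in lung, 84.8 in heart, 82.2 in MAT, 72.9 in SCAT, 50.6 in skin, 48.1 in bone (13.0 to 500) and 43.1 in kidney. It was 34.6 in limb muscle, 24.2 in BAT, 16.8 in liver, 15.8 in spleen, 13.4 in pancreas, 13.0 in small intestine and 7.85 in marrow (2.97 to 31.1). Steps that passed were SCAT over skin, bone over kidney (adjusted p = 0.0209), limb muscle over BAT (0.00456) and small intestine over marrow. mmu-miR-125a-5p was the lowest member in 701 of the 769 aging libraries and 173 of the 176 parabiosis libraries. Its median was 36.8 rpmm in brain (3.40 to 71.8), 31.7 in lung, 26.7 in GAT, 22.3 in kidney, 20.9 in MAT, 18.8 in SCAT and 12.9 in heart. It was 9.71 in BAT, 8.91 in skin, 7.07 in bone (2.21 to 115), 6.62 in small intestine, 6.47 in limb muscle, 6.12 in liver, 5.24 in pancreas, 4.42 in spleen and 2.03 in marrow (0.618 to 6.25). Here SCAT over heart, bone over small intestine (adjusted p = 0.0284), pancreas over spleen (0.0352) and spleen over marrow passed. Over all members, 21 of 75 steps passed. These are bulk tissues, in which fewer cells of a type and less RNA per cell cannot be told apart.

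The 5 members together made up a median of 0.0458% of the miRNA reads in small intestine and 0.563% in GAT. mmu-miR-99a-5p alone was 44.6% of the members' summed level in small intestine and 91.0% in pancreas. Tissue accounted for 72.2% of the variance of mmu-miR-99a-5p on the log2 scale, 68.5% for mmu-miR-100-5p, 65.7% for mmu-miR-99b-5p, 68.7% for mmu-miR-125b-5p and 57.0% for mmu-miR-125a-5p. The median over the 502 miRNAs with a mean of at least 10 rpmm in a tissue was 76.9%, so the members varied between tissues by no larger a share than most. In the parabiosis cohort mmu-miR-99a-5p had medians of 2205 rpmm in GAT, 2156 in heart, 1024 in kidney, 818 in MAT, 573 in limb muscle and 321 in liver. mmu-miR-125a-5p ranged there from 4.49 in liver to 24.3 in kidney.

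For mmu-miR-99b-5p and mmu-miR-125a-5p, the miRNAs with the most similar tissue patterns all came from their own cluster. Likeness was measured by Pearson's r of mean log2(rpmm + 1) over the 16 tissues, among those 502 miRNAs, and is a description over libraries that share depth and scaling. The 3 miRNAs most like mmu-miR-99b-5p were its opposite arm mmu-miR-99b-3p (r = 0.975), mmu-let-7e-5p (0.946) and mmu-miR-125a-3p (0.941), all from the chromosome 17 cluster. The 3 most like mmu-miR-125a-5p were mmu-miR-125a-3p (0.956), mmu-let-7e-5p (0.935) and mmu-miR-99b-5p (0.927), again from that cluster. For mmu-miR-99a-5p they were mmu-miR-125b-2-3p (0.955) and mmu-miR-99a-3p (0.925), both of the chromosome 16 cluster, and mmu-miR-30a-3p (0.835), which belongs to none of the 3 clusters. For mmu-miR-100-5p they were mmu-miR-100-3p (0.966) and mmu-miR-125b-1-3p (0.876), both of the chromosome 9 cluster, and mmu-miR-125b-5p (0.853), which has a gene there and another in the chromosome 16 cluster. mmu-miR-125b-5p, which has a gene in each of both clusters, was most like mmu-miR-125b-2-3p (0.922) and mmu-miR-125b-1-3p (0.901), followed by mmu-miR-125a-5p (0.898). The median r of a member with the other 501 miRNAs lay between 0.18 for mmu-miR-99a-5p and 0.36 for mmu-miR-125a-5p, and the 95th percentile between 0.66 and 0.80.

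Within a tissue, library by library, another grouping appeared. After each library was scaled to its miRNA reads, the median of Spearman's rho over the 16 tissues was 0.90 between mmu-miR-99a-5p and mmu-miR-100-5p, which lie on different chromosomes and differ by 1 base. It was 0.83 between mmu-miR-99a-5p and mmu-miR-125b-5p, 0.81 between mmu-miR-100-5p and mmu-miR-125b-5p and 0.78 between mmu-miR-125b-5p and mmu-miR-125a-5p. It was 0.55 for mmu-miR-99b-5p with mmu-miR-125a-5p, the neighbours on chromosome 17. mmu-miR-99a-5p had a median rho of 0.19 with its own opposite arm mmu-miR-99a-3p (0.45 on the rpmm scale) and of -0.08 with mmu-miR-125b-2-3p, its closest relative across tissues. A member's median rho with all other miRNAs lay between 0.19 and 0.29, and the 95th percentile between 0.61 for mmu-miR-125a-5p and 0.77 for mmu-miR-99a-5p. The 0.55 of mmu-miR-99b-5p with mmu-miR-125a-5p was below the 95th percentile of both. The value for mmu-miR-99a-5p and mmu-miR-125b-2-3p was 0.34 on the rpmm scale, so its sign rested on the scaling.

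The balance between mmu-miR-100-5p and mmu-miR-99a-5p, taken as a ratio within each library so that scaling cancels, differed between tissues by over an order of magnitude. Its median was 0.0116 in pancreas, 0.0249 in kidney and 0.0387 in heart, and rose to 0.127 in brain, 0.134 in spleen, 0.166 in limb muscle and 0.274 in small intestine. No library had a ratio above 1, and the lowest was a pancreas library of 15 months in which mmu-miR-100-5p was at 0.511% of mmu-miR-99a-5p. The opposite arms of the miR-125b genes in the same clusters gave a similar order. mmu-miR-125b-1-3p of chromosome 9 was 7.17% of the rpmm of both arms, summed over libraries, in pancreas, 10.3% in liver, 11.1% in kidney and 13.5% in heart. It was 32.5% in limb muscle, 33.1% in brain, 33.3% in MAT, 49.6% in small intestine and 50.2% in spleen. Over the 16 tissues the ratio of these arms and the ratio of mmu-miR-100-5p to mmu-miR-99a-5p had r = 0.88 and rho = 0.87, as a description over the same libraries.

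Within the miR-125 family, mmu-miR-125b-5p exceeded mmu-miR-125a-5p in 768 of 769 aging libraries and in all 176 parabiosis libraries. The median ratio of mmu-miR-125b-5p to mmu-miR-125a-5p was lowest in kidney at 1.78 and highest in heart at 6.33. The seed relative mmu-miR-351-5p was above mmu-miR-125b-5p in some tissues, with a median of 34.5 against 7.85 rpmm in marrow, 126 against 87.8 in lung and 49.3 against 43.1 in kidney. In brain it was 8.17 against 163 rpmm. Marrow, with the least of both miR-125 members, therefore still held reads with that seed.

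Age was first examined as Spearman's correlation with age in each tissue, called at rho above 0.5 or below -0.5. Of the 80 pairs of a member and a tissue, 3 passed, against 8.06% of all 8849 pairs of a miRNA and a tissue. They were mmu-miR-100-5p and mmu-miR-125b-5p in marrow and mmu-miR-99b-5p in BAT, and all 3 rose. At an adjusted p under 0.05 (permutation test with 100000 shuffles, adjusted within the tissue), 12 of 80 passed, 10 rising and 2 falling, against 18.0% of all pairs. Over the 80 pairs the median rho was 0.10, from -0.42 to 0.61.

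In marrow, mmu-miR-100-5p had medians of 5.06, 5.90, 6.92, 10.5, 9.16, 8.51, 9.79, 12.3, 11.9 and 16.4 rpmm at the 10 ages from 1 to 27 months, with 4 to 6 libraries an age. The 4 libraries of 27 months (14.4 to 17.6) were all above the 6 of 1 month (3.15 to 9.63). Over the 56 marrow libraries rho was 0.60 (adjusted p = 0.000591, permutation test), and Pearson's r was 0.58, or 0.54 with the 2 libraries at the most extreme ages left out. mmu-miR-125b-5p, whose overexpression is known to expand blood progenitors, had medians of 4.34, 5.23, 6.99, 8.83, 6.83, 7.82, 8.81, 10.4, 10.4 and 13.0 rpmm over the same ages. Its rho was 0.61 (adjusted p = 0.000591), and r was 0.52, or 0.48 without those 2 libraries. In marrow 4.14% of the tested miRNAs had rho above 0.5, and the median rho over them was -0.04.

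Both relations held within the batches compared. The plate of a library was taken from the annotation deposited with the data. The plates compared held 6 to 11 marrow libraries each, and some marrow libraries lay outside them. Within these plates rho was above 0 in 5 of 5 for mmu-miR-100-5p (0.43 to 0.99) and in 5 of 5 for mmu-miR-125b-5p (0.53 to 0.91). Without the 24- and 27-month libraries rho of mmu-miR-100-5p was 0.48, and without the 1-month libraries rho of mmu-miR-125b-5p was 0.50, so the call at 0.5 was lost in both cases. The other members rose less in marrow, with rho of 0.42 for mmu-miR-99a-5p, 0.39 for mmu-miR-99b-5p and 0.35 for mmu-miR-125a-5p (adjusted p = 0.0453), and all of them were past the adjusted threshold. Of the other cluster products, mmu-miR-125b-1-3p rose most (rho = 0.57, adjusted p = 0.000355), followed by mmu-miR-125b-2-3p (0.46, adjusted p = 0.00575). The let-7 members of the clusters had rho of 0.25 (mmu-let-7c-5p), 0.20 (mmu-let-7e-5p) and -0.11 (mmu-let-7a-5p). Among the 10 other cluster and seed relatives tested in marrow, 1 had rho above 0.5, and mmu-miR-351-5p had rho of -0.35. The summed smooth muscle markers also rose with age in marrow (rho = 0.48), as did the fibroblast markers (0.36), while the white blood cell markers had -0.04, the endothelial markers 0.22 and the miRNA share of reads -0.09. The part of these cell types in the marrow result was not tested.

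In BAT, rho of mmu-miR-99b-5p was 0.51 over 31 libraries (adjusted p = 0.0297), and r was 0.43, or 0.48 with the 2 at the most extreme ages left out. Only 1 to 2 BAT libraries were available at 1, 3 and 6 months, with medians of 59.0, 12.3 and 8.02 rpmm, against 179 at 24 months and 112 at 27 months. In BAT 15.2% of all tested miRNAs had rho above 0.5, and their median rho was 0.39. mmu-miR-99a-5p (0.45), mmu-miR-100-5p (0.44) and mmu-miR-125b-5p (0.42) lay close to that median and passed only the adjusted threshold. The miRNA share of reads in BAT also rose with age (rho = 0.54), as did the white blood cell (0.50), endothelial (0.52), smooth muscle (0.41) and fibroblast markers (0.39). Scaled to miRNA reads, rho of mmu-miR-99b-5p was 0.35, with plate means removed it was 0.25, and without the 24- and 27-month libraries it was also 0.25. Within the plates compared it was above 0 in 2 of 2 (0.75 to 0.93), with 6 libraries each, and the other BAT libraries lay outside them.

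The other adjusted calls were mmu-miR-100-5p in bone (rho = 0.41, adjusted p = 0.0235, n = 48 libraries, permutation test), and in limb muscle mmu-miR-125b-5p (-0.42, adjusted p = 0.0145, n = 47) and mmu-miR-125a-5p (-0.39, adjusted p = 0.0279). In limb muscle the fibroblast markers (rho = -0.47) and red blood cell markers (-0.38) fell too, and their part in the result was not tested.

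Each other age was then compared with 3 months by limma on log2(rpmm + 1), with calls at a Benjamini-Hochberg adjusted p below 0.05 over the miRNAs of a tissue. Of 640 comparisons of the members, 13 were called, 6 higher and 7 lower, and 62 had an unadjusted p under 0.05. Over all miRNAs 2.65% of such comparisons were called. An unadjusted p under 0.05 by limma was found for 871 of 8323 comparisons of all miRNAs at 12 months, the lowest share of an age. The highest share was 1460 of 7779 at 21 months. The calls fell in MAT at 1 month, limb muscle at 15 months, small intestine at 21 months and liver at 27 months.

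In small intestine, mmu-miR-99a-5p was at 72.4, 85.4, 133, 151, 192 and 218 rpmm in the 6 libraries of 21 months and between 36.7 and 94.1, with a median of 59.3, in the 5 of 3 months. The groups overlapped, with 4 of the 6 older libraries above all younger ones. The difference was 1.11 on the log2 scale (SE 0.25, limma adjusted p = 0.00492). mmu-miR-100-5p was at 23.3, 24.3, 32.0, 38.8, 40.3 and 59.4 rpmm against 7.75, 18.5, 20.2, 26 and 29.3, a difference of 0.85 (SE 0.27, adjusted p = 0.0345). mmu-miR-125b-5p was 13.6 to 26.4 against 5.66 to 13.7 rpmm, a difference of 0.74 (SE 0.23, adjusted p = 0.0276), with 5 of 6 older libraries above all younger ones. mmu-miR-125a-5p (0.69, adjusted p = 0.169) and mmu-miR-99b-5p (0.29, adjusted p = 0.490), both of chromosome 17, did not pass, while mmu-miR-125a-3p was called higher (0.91, adjusted p = 0.0139). These 3 were the members called among the comparisons of 21 with 3 months, in which 3.86% of all miRNAs were called, and 12.5% of the small intestine's miRNAs were higher. The summed smooth muscle markers were 50769 to 85347 rpmm at 21 months and 31852 to 54387 at 3 months (1 of 2 called higher), the fibroblast markers 2436 to 5991 against 1717 to 2930 (1 of 3 called higher) and the epithelial markers 3304 to 34158 against 18073 to 41050 (none of 5 called). Their part in the result was not tested. With males alone none of the 3 passed (adjusted p = 0.0572 for mmu-miR-99a-5p, 0.0587 for mmu-miR-100-5p and 0.109 for mmu-miR-125b-5p). Without the 3-month library of replicate 29, mmu-miR-100-5p (0.56, adjusted p = 0.211) and mmu-miR-125b-5p (0.55, adjusted p = 0.166) were lost and mmu-miR-99a-5p was not (0.93, adjusted p = 0.0311).

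In liver, mmu-miR-99a-5p was at 377, 596, 888 and 1070 rpmm in the 4 libraries of 27 months, against 195 to 467 in the 6 of 3 months. That was a log2 difference of 1.22 (SE 0.39, limma adjusted p = 0.0170), with 3 of 4 old libraries above all young ones. mmu-miR-125a-5p was at 4.16, 10.1, 13.5 and 14.4 rpmm against 2.17 to 6.01 (1.24, adjusted p = 0.0213). mmu-miR-125b-5p was at 11.3, 22.8, 33.6 and 38.9 against 8.11 to 19.7 (0.99, adjusted p = 0.0382). mmu-miR-100-5p (0.66, adjusted p = 0.209) and mmu-miR-99b-5p (0.51, adjusted p = 0.349) did not pass. Among the other cluster products mmu-miR-125b-2-3p (1.10), mmu-miR-99a-3p (0.81), mmu-let-7c-1-3p (0.68) and mmu-miR-125a-3p (0.79) were called higher, the first 3 from the chromosome 16 cluster. In this comparison 28.1% of all tested miRNAs were higher, and miRNAs were 36.1 to 46.6% of mapped reads at 27 months and 17.5 to 32.8% at 3 months. Scaled to miRNA reads the differences were 0.55 for mmu-miR-99a-5p, 0.69 for mmu-miR-125a-5p and 0.36 for mmu-miR-125b-5p and none was called. Without replicate 18 of 27 months mmu-miR-99a-5p (1.00, adjusted p = 0.0984) and mmu-miR-125b-5p (0.77, 0.185) were lost, and without replicate 13 mmu-miR-125a-5p (1.06, 0.0936). The summed white blood cell markers were 1055 to 2291 rpmm against 369 to 1055 (3 of 4 called higher) and the fibroblast markers 1490 to 1891 against 486 to 876 (2 of 3), and their part was not tested.

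In limb muscle at 15 months mmu-miR-99a-5p was at 124, 254, 390, 424 and 487 rpmm, against 436 to 802 in the 6 libraries of 3 months, and 4 of the 5 lay below all of these. The log2 difference was -1.08 (SE 0.40, limma adjusted p = 0.0476). mmu-miR-99b-5p was at 4.36, 12.6, 36.2, 46.7 and 46.9 against 44.7 to 96.6 (-1.55, SE 0.58, adjusted p = 0.0490). In this comparison 22.2% of tested miRNAs were lower. The white blood cell markers (176 to 735 against 530 to 1296 rpmm, 1 of 4 called lower) and fibroblast markers (592 to 3335 against 2926 to 6492, 1 of 3) were lower too, and their part was not tested. The calls were near the threshold, and single libraries left out in turn ended them in 23 of 47 cases for mmu-miR-99a-5p and 34 of 47 for mmu-miR-99b-5p.

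In MAT at 1 month all 5 members were called lower than at 3 months, and a single library stood far below the rest. mmu-miR-99a-5p was at 42, 688 and 724 rpmm in the 3 libraries of 1 month and at 699, 701, 727, 883 and 2394 in the 5 of 3 months. mmu-miR-100-5p was at 1.53, 90.8 and 101 against 80.6, 89.1, 115, 131 and 308. The log2 differences were -1.77 for mmu-miR-99a-5p (limma adjusted p = 0.0409), -2.16 for mmu-miR-100-5p (0.0383), -2.06 for mmu-miR-99b-5p (0.0409), -1.58 for mmu-miR-125b-5p (0.0448) and -1.75 for mmu-miR-125a-5p (0.0370). Of all miRNAs tested there, 9.14% were lower. The lowest miRNA share at 1 month was 2.97% of mapped reads, against 36.9 to 64.3% at 3 months, and the summed smooth muscle markers spanned 6003 to 290662 rpmm at 1 month. Without the 3-month library of replicate 05, which had the highest value, the differences were -1.85 to -1.31 (adjusted p = 0.0854 to 0.120) and none was called. Without the low library fewer than 3 libraries of 1 month are left, and the comparison was not made. With reads, edgeR called none of the 5 (adjusted p = 0.543 to 0.589), and none was called after scaling to miRNA reads.

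The ratio of mmu-miR-100-5p to mmu-miR-99a-5p, with 1 rpmm added to each, changed with age in 4 of 16 tissues (Spearman's rho, permutation test adjusted over 48 pairs of a ratio and a tissue). In limb muscle mmu-miR-100-5p went from a median of 11.2% of mmu-miR-99a-5p at 1 month and 13.4% at 3 months to 17.4% at 21 and 19.0% at 27 months (rho = 0.63, adjusted p = 0.000480). In brain it went from 11.8% at 1 month to 14.2% at 27 months (rho = 0.55, adjusted p = 0.000640), and in marrow from 6.92% to 11.8% (rho = 0.60, adjusted p = 0.000480). In MAT it fell, from 12.5% at 1 month and 12.9% at 3 months to 8.72% at 21 and 7.93% at 27 months (rho = -0.51, adjusted p = 0.00312). Plates with 6 to 11 libraries of a tissue were compared, and in each of these tissues some libraries lay outside them. Within these plates rho was above 0 in 4 of 4 for brain (0.63 to 0.77), 6 of 6 for limb muscle (0.27 to 0.84) and 4 of 5 for marrow (0.00 to 0.93). It was above 0 in none of 3 for MAT (-0.55 to -0.26). The marrow value rests on low levels, with rho of 0.04 when 10 rpmm was added before the ratio in place of 1. The MAT call was lost without the 24- and 27-month libraries (-0.41, adjusted p = 0.0922), an alternative chosen after the values were seen, and with plate means removed (-0.32, adjusted p = 0.157). Without the libraries closest to another tissue it was -0.46 (adjusted p = 0.0250). A further call was the ratio of mmu-miR-125b-5p to mmu-miR-125a-5p in marrow (rho = 0.38, adjusted p = 0.0382), and none of the 16 tissues passed for mmu-miR-99b-5p to mmu-miR-125a-5p. In the same 4 tissues the ratios of the opposite arms (mmu-miR-125b-1-3p to mmu-miR-125b-2-3p and mmu-miR-100-3p to mmu-miR-99a-3p) had an adjusted p under 0.05 in none of 8 pairs of a ratio and a tissue. The former had rho of 0.31 in marrow (p = 0.0199, adjusted p = 0.159, permutation test). White blood cell markers rose with age in MAT (rho of their sum 0.62), as did fibroblast markers (0.47), while smooth muscle markers had -0.29. In limb muscle the fibroblast markers had -0.47. Their part in the ratios was not tested.

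Sex was compared over the ages 1 to 21 months with age as a factor. Of 80 pairs 1 was called and 16 had an unadjusted p under 0.05, against 4.48% of all pairs called. Over all miRNAs, 1356 of 8849 pairs had an unadjusted p under 0.05 by limma. In SCAT, mmu-miR-99b-5p had a median of 166 rpmm in 27 male libraries (19.2 to 447) and 77.8 in 11 female libraries (29.2 to 165), and 14 of the 27 male libraries lay above all female ones. The log2 difference, male minus female, was 1.04 (SE 0.32, limma adjusted p = 0.0245), and 7.33% of miRNAs tested in SCAT were higher in males. All 5 epithelial markers were lower in male SCAT, by a median of 4.42 on the log2 scale (lower in males), with sums of 10.4 to 959 rpmm in males and 1087 to 7762 in females. Their part in the result was not tested. Scaled to miRNA reads the adjusted p was 0.0605, and without the 21-month library of replicate 14 the difference was 0.85 (adjusted p = 0.0836). The slope over age differed between the sexes for none of the 80 pairs by limma or by edgeR (7 with an unadjusted p under 0.05 by limma), and for 0.294% of all pairs. By limma, 684 of all 8849 pairs had an unadjusted p under 0.05 for the slope.

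In the parabiosis cohort 4 members were called higher in IA than in IY hearts, groups that differ in age and in part in strain. In IA against IY hearts, mmu-miR-99a-5p was at 1850, 2093, 2401, 2451, 3163, 3459, 3613 and 4736 rpmm in the 8 IA mice and at 1560, 1639, 1662, 1732, 1879, 1881, 2953 and 3010 in the 8 IY mice. The groups overlapped, and 4 of 8 IA hearts lay above all IY hearts. The log2 difference was 0.53 (SE 0.18, limma adjusted p = 0.0406). mmu-miR-100-5p had a median of 124 rpmm in IA (75.7 to 246) and 68.3 in IY (57.6 to 138), a difference of 0.61 (SE 0.22, adjusted p = 0.0461). mmu-miR-99b-5p had medians of 176 (110 to 324) and 108 (70.0 to 199), a difference of 0.73 (SE 0.24, adjusted p = 0.0335). mmu-miR-125b-5p had medians of 133 (84.2 to 229) and 81.0 (73.4 to 143), a difference of 0.55 (SE 0.20, adjusted p = 0.0474). mmu-miR-125a-5p, with medians of 19.2 (11.9 to 38.2) and 11.8 (9.53 to 25.2), did not pass (0.60, adjusted p = 0.0710). These 4 were the only calls among the 30 pairs of IA against IY (13 with an unadjusted p under 0.05), in which 8.13% of all pairs were called and 9.69% of the heart's miRNAs were higher. Over all miRNAs, 679 of 3211 pairs of IA against IY had an unadjusted p under 0.05 by limma.

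The heart medians of the joined partners of different age lay between those of the isochronic groups. mmu-miR-99a-5p had a median of 2149 rpmm in HY and 2163 in HA, between 1805 in IY and 2807 in IA. mmu-miR-100-5p had 87.7 in HY and 89.3 in HA, mmu-miR-99b-5p 140 and 128, mmu-miR-125b-5p 103 and 91.3, and mmu-miR-125a-5p 14.2 and 13.3. None of these steps was called, with HA minus IA from -0.55 to -0.39 on the log2 scale (limma adjusted p = 0.101 to 0.301) and HY minus IY from 0.19 to 0.39. While the 5p members were higher in IA than in IY hearts, other miRNAs encoded in the same clusters were called lower, namely mmu-let-7a-5p (-0.61, adjusted p = 0.0105), mmu-let-7c-5p (-0.58, 0.0188), mmu-let-7e-5p (-0.62, 0.0307) and mmu-miR-125b-2-3p (-0.33, 0.0418). They were 4 of the 12 tested, and none was higher. Over all tissues 151 of 3211 pairs of a miRNA and a tissue were called lower in IA than in IY, and the share in heart alone is not reported here. Mature mmu-let-7a-5p and mmu-let-7c-5p also come from genes outside these clusters and cannot be assigned to them. Of the fibroblast markers 2 of 3 were called higher in IA hearts, though their sums overlapped (2819 to 5064 rpmm in IA, 3367 to 5401 in IY), and miRNAs were 42.6 to 58.1% of reads in IA and 52.7 to 57.1% in IY. Their part was not tested. Without the IA heart 9B the differences were 0.42 for mmu-miR-99a-5p (adjusted p = 0.112), 0.46 for mmu-miR-100-5p (0.135), 0.61 for mmu-miR-99b-5p (0.0945) and 0.44 for mmu-miR-125b-5p (0.133), and none was called. Single libraries left out in turn ended the calls in 8 to 14 of 30 cases. With the pair of joined mice as a random block, mmu-miR-99b-5p was still called (adjusted p = 0.0467) and mmu-miR-99a-5p (0.0542), mmu-miR-100-5p (0.0618) and mmu-miR-125b-5p (0.0628) were not. Partners' deviations in heart had r above 0.1 in 2 of 4 IA pairs and 0 of 4 IY pairs.

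MAT had larger differences in the opposite direction and a larger spread. From IY, HY and HA to IA the medians were 129, 73.4, 98.5 and 37.8 rpmm for mmu-miR-100-5p, 164, 86.6, 143 and 50.1 for mmu-miR-99b-5p and 77.6, 50.6, 70.2 and 23.3 for mmu-miR-125b-5p. For mmu-miR-99a-5p they were 1127, 813, 1010 and 631 rpmm, and for mmu-miR-125a-5p 14.5, 9.18, 11.4 and 6.17. The MAT libraries of the IY mice 10A and 16B and of the HA mouse 5A were closest to GAT in their whole miRNA profile. Their mmu-miR-99a-5p was at 2414, 1471 and 1987 rpmm, and no IA library of MAT was closest to another tissue. In the limma fit of the 4 groups no member was called in MAT, with these libraries or without them. IA was the lowest group for every member, but IA minus IY was not called (mmu-miR-100-5p -1.51, SE 0.51, limma adjusted p = 0.121, mmu-miR-99b-5p -1.23, 0.121, mmu-miR-125b-5p -1.13, 0.142, mmu-miR-125a-5p -0.93, 0.156, mmu-miR-99a-5p -0.84, 0.164). With the pair as a random block mmu-miR-100-5p (-1.49, adjusted p = 0.0303), mmu-miR-125b-5p (-1.12, 0.0439) and mmu-miR-99b-5p (-1.22, 0.0384) were called lower in IA. Isochronic partners in MAT deviated in opposite directions, with r of -0.76 to -0.14 in the 3 IA pairs and -0.82 to -0.20 in the 4 IY pairs. Both partners enter the group mean from which they deviate, which by itself lowers r, and the size of that effect was not computed. HA minus IA in MAT was 0.94 to 1.38 (adjusted p = 0.189 to 0.219). HA minus IA and IA minus IY share the IA libraries.

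Between the joined groups no member was called in any tissue. In HA against IA none of 30 pairs passed by limma (9 with an unadjusted p under 0.05) or by edgeR, against 0.965% of all pairs. In HY against IY none passed by either tool (0 with an unadjusted p under 0.05), against 0% of all pairs, of which 155 of 3211 had an unadjusted p under 0.05. In HA against HY none passed by either tool (1 with an unadjusted p under 0.05), against 9.81% of all pairs, of which 626 of 3211 had an unadjusted p under 0.05. In the last of these comparisons other products of the clusters were called in kidney, where mmu-miR-125b-1-3p (0.76) and mmu-miR-99b-3p (0.59) were higher in HA and mmu-miR-99a-3p (-0.44) was lower. Of the 12 tested there, 2 were thus higher and 1 lower. Over all miRNAs and tissues 177 of 3211 pairs were higher in HA and 138 lower, and the share in kidney alone is not reported here. The ratio of mmu-miR-100-5p to mmu-miR-99a-5p did not pass in any of the 6 tissues in IA against IY (exact permutation test, two-sided, adjusted over 6). By that exact test its log2 difference was 0.22 in kidney (p = 0.0264, adjusted p = 0.159), -0.67 in MAT (p = 0.107, adjusted p = 0.214) and -0.25 in GAT (p = 0.0606, adjusted p = 0.182).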

How the data were processed

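Small RNA was sequenced by the authors as single-end reads and processed with miRMaster. Reads were mapped with Bowtie, allowing 1 mismatch, to RNA sequences from databases (miRBase for miRNAs), and the processing notes name mm10. As deposited, each RNA has a signal in each library, its reads per 1000000 mapped reads (rpmm). Libraries with fewer than 2 M aligned reads, and RNAs that reached 1 rpmm in no library, had been dropped by the authors. The values summed to over 1000000 in 766 of 769 aging and 176 of 176 parabiosis libraries, and thus do not divide a common total. 2 of 771 columns of the aging table were not used, since their names did not match a library's labels. Numbers in the aging titles do not link tissues of a mouse, and p-values then measure the spread between libraries.

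Here, miRNAs with at least 1 rpmm in 10% of a tissue's libraries were compared on log2(rpmm + 1), so fold changes of low miRNAs are understated. Tests were limma 3.58.1 (eBayes with trend, R 4.3.3) and Spearman's rho with 100000 shuffles (smallest p 1e-05), with Benjamini-Hochberg adjustment over all miRNAs of a tissue and contrast. edgeR 4.0.16 ran as an alternative on recovered reads. Of miRNA values above 0 and up to 1000 reads, 99.0% (aging) and 98.8% (parabiosis) were whole reads at a tolerance of 0.05 reads. For mmu-miR-125b-5p, which has 2 genes, 57.4% of 430 such values were whole and 42.6% ended in 0.5 reads in the aging cohort. Partners of a pair share a number in the titles. HA and HY partners deviated together from their group means in 7 of 7 liver pairs (r 0.17 to 0.64), 6 of 7 heart pairs, 2 of 7 GAT pairs and 2 of 5 MAT pairs (r above 0.1). Of isochronic partners this held for 2 of 4 IA and 0 of 4 IY pairs in heart and for 0 of 3 IA and 0 of 4 IY pairs in MAT. Isochronic partners share a group mean, which lowers their r, so these counts are not like those of HA and HY partners. The limma fits of age and parabiosis, the edgeR fit of parabiosis and the permutation p of rank correlations were tested on simulated data. The other steps were not. Named were all members, the other products of their clusters, mmu-miR-351-5p and the 3 miRNAs most like each member. The members, lists and tests were chosen with earlier results of these data known. The name of the strain of the HY mice is not reported here. Positions of the mature miRNAs and the clusters are from RefSeq, and the genes that hold them from GENCODE (both GRCm38). Python 3.11.15, numpy 2.4.6, pandas 2.3.3, scipy 1.17.1 and matplotlib 3.10.9 were used.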

Additional observations from a re-analysis of the deposited data

Results flagged for a closer look

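Among 155 combinations of a member and a group of 4 to 10 libraries, 13 held a value that stood apart from the rest of its group. The groups were those of the parabiosis cohort and those behind the called comparisons of an age with 3 months. Other groups of the aging cohort, marrow among them, were not screened. Chance alone gives about 1 in 20, but the members of a library are not independent, and the 13 values came from 8 libraries. In the liver of the HY mouse 2B, mmu-miR-99a-5p was at 73.2 rpmm (next lowest 220), mmu-miR-99b-5p at 7.47 (30.4), mmu-miR-125b-5p at 2.86 (8.67) and mmu-miR-125a-5p at 0.913 (3.67), and miRNAs were 7.82% of its reads. In the liver of the HA mouse 1A, mmu-miR-99a-5p was at 161 (282), mmu-miR-100-5p at 7.07 (13.5) and mmu-miR-125b-5p at 6.22 (10.4), with miRNAs at 21.3% of reads. The other 6 were single values. In MAT at 3 months mmu-miR-99a-5p was at 2394 rpmm in replicate 05 (next 883). In heart mmu-miR-125a-5p was at 25.2 in the IY mouse 10A (12.8) and at 6.76 in the HA mouse 14A (13.1). In GAT mmu-miR-100-5p was at 37.5 in the HA mouse 14A (97.3) and at 63.1 in the IA mouse 7A (113). In limb muscle mmu-miR-125a-5p was at 2.64 in the HA mouse 5A (4.71).

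The slope with age of the ratio of mmu-miR-100-5p to mmu-miR-99a-5p was compared between the 4 tissues in which this ratio was called. The slope was 0.010 log2 units a month in brain, 0.023 in limb muscle, 0.019 in marrow and -0.019 in MAT. These 4 tissues were compared because each had passed its own test, so the pairs were chosen after the values were seen. MAT had passed with a fall and the others with a rise, so the p-values of MAT against them are no further support. Brain minus MAT was 0.029 (permutation test, adjusted p = 0.000120), limb muscle minus MAT 0.041 (3e-05) and MAT minus marrow -0.038 (3e-05). Brain minus limb muscle was -0.012 (0.00928) and brain minus marrow -0.009 (0.0273). Limb muscle and marrow differed by 0.003 (p = 0.527, permutation test).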

How the results depend on the processing

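Over 26 called values and 308 alternative values, 194 kept their direction and call, 114 kept the direction but lost the call and 0 reversed. The 13 calls of an age against 3 months became 7 with miRNA-read scaling, 8 with median-ratio scaling, 4 with no filter, 7 with 10 rpmm added, 7 with edgeR on recovered reads, 6 with the set of 12 title numbers as a covariate and 8 to 20 when single libraries were left out. With plate as a covariate there were 14 calls, but 10 of these were all 5 members higher in brain at 12 and 15 months (1.42 to 1.87) and no call of liver, limb muscle or MAT was kept. With males only there were 9, of which 5 were all members lower in skin at 15 months (-1.62 to -1.40). The 3 calls at 21 months became 1 with median-ratio scaling, 0 with males only and 1 to 4 without single libraries. The 1 sex call became 2 with miRNA-read scaling (mmu-miR-99a-5p, lower in male kidney at -0.62 and higher in male liver at 0.48, without the SCAT call), 4 with median-ratio scaling, 2 without the libraries closest to another tissue, 6 with plate as a covariate (3 lower in male kidney, 3 higher in male SCAT) and 0 to 2 without single libraries. The 4 calls of IA against IY became 0 with no filter, 2 with 10 rpmm added and 0 to 9 without single libraries. The 3 age correlations became 12 by adjusted p, 6 with miRNA-read scaling (3 rising in marrow, 3 falling in limb muscle at -0.56 to -0.50, none in BAT), 1 with a mean of at least 10 rpmm, 5 with set means removed, 7 with males only, 6 without the 1-month libraries and 2 to 7 without single libraries. The 5 ratio calls were 4 to 6 without single libraries, and the 21 steps between tissues were 17 to 22 under other scalings, ages or libraries. With the pair as a replicate block, calls were 0 for HA minus IA, 0 for HY minus IY, 4 for IA minus IY and 0 for HA minus HY, and those of IA minus IY were 1 in heart and 3 in MAT. The cause of these changes was not tested. Levels near 1 rpmm, as of mmu-miR-125a-5p in marrow, are limited by depth.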

Other observations

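Sets of libraries with adjoining title numbers stood apart in bone, brain and kidney, among others, and were picked out after their values were seen. In bone, the 11 libraries numbered 13 to 24 had a median of 259 rpmm of mmu-miR-125b-5p (22.9 to 464) and 41.5 rpmm of mmu-miR-125a-5p. The other bone sets of 12 numbers had medians of 31.9, 32.2, 52.6 and 37 rpmm of mmu-miR-125b-5p, and 5.80, 5.35, 9.86 and 6.08 rpmm of mmu-miR-125a-5p. mmu-miR-99b-5p, from the same cluster as mmu-miR-125a-5p, had a median of 37.2 rpmm in that bone set, against 34.2, 27.5, 23.1 and 33.3 in the others. In brain, the 12 libraries numbered 25 to 36 had a median of 211 rpmm of mmu-miR-99a-5p (117 to 364) and 51.6 of mmu-miR-125b-5p, against 899 to 1255 and 164 to 210 in the other sets. The 9 kidney libraries numbered 1 to 12 had a median of 221 rpmm of mmu-miR-99a-5p (76.1 to 679) and 9.74 of mmu-miR-125b-5p. The other kidney sets had medians of 862 to 1235 and 43.6 to 57.9. No test was made.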
